A study of Mus musculus with 16 samples.

Results

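The mouse genes for glutamate and GABA receptors were followed across the 4 groups of the series. Members were the protein-coding genes whose symbols name a subunit of an AMPA (Gria), NMDA (Grin), kainate (Grik), delta (Grid) or metabotropic (Grm) glutamate receptor, or of a GABA-A (Gabr) or GABA-B (Gabbr) receptor. The rule took 47 of the 55335 genes in the deposited files, in 13 classes, and used names only, not measured values. Of these, 42 passed the filter on low counts and 10 stayed under a mean of 1 CPM (counts scaled to a common library size) in every group. Gabra6, Gabrp, Gabrr1, Gabrr2 and Gabrr3 did not pass it and were not tested.

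RNA was measured in 16 libraries of oligodendrocyte precursor cells (OPCs), the glial cells that give rise to myelinating oligodendrocytes, grown from mouse neural stem cells. The 4 groups of 4 libraries were RXRgKO-labelled cells given triiodothyronine (T3, the active thyroid hormone) for 24 h, RXRgKO-labelled untreated cells, WT-labelled cells given T3 for 24 h, and WT-labelled untreated cells. RXRgKO stands for Rxrg-/-, loss of both copies of the gene of the nuclear receptor RXR gamma, and WT for Rxrg+/+. All groups came from day 4 of monolayer culture on a C57BL6J/129svEmx mixed background. The labels do not say that libraries of a group came from separate animals or cultures, so p-values measure the spread between these libraries, which may be technical.

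AMPA, NMDA, kainate and GABA-A receptors are ion channels built from several subunits, and which subunit genes a cell uses sets the channel's speed, calcium entry and pharmacology. Metabotropic glutamate receptors and the GABA-B receptor instead signal through G proteins. OPCs carry AMPA, kainate, NMDA and GABA-A receptors and receive synapses from neurons, and RXR proteins pair with thyroid hormone receptors on DNA whose half-site reads AGGTCA.

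Promoter sequences are shown for 4 genes on which the results turn. These are Grin2c, higher with T3 under both labels, and Grm7, the member with the greatest label difference without T3. The others are the neighbours Gabra5 and Gabrg3, both higher in RXRgKO-labelled libraries. Each sequence runs 5′ to 3′ on the gene's strand from 250 bases before to 50 bases after a RefSeq start (GRCm38.p6). Capitals mark a match to AGGTCA. The positions are chr11:115267194-115267493 (minus strand) for Grin2c, chr6:110645348-110645647 (plus) for Grm7, chr7:57510010-57510309 (minus) for Gabra5 and chr7:57387166-57387465 (minus) for Gabrg3.
Grin2c: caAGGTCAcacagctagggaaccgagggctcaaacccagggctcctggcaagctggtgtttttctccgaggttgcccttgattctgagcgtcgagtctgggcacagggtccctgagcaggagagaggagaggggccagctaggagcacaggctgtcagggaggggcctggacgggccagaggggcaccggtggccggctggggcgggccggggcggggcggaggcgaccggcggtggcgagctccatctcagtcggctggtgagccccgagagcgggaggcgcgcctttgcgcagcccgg
Grm7: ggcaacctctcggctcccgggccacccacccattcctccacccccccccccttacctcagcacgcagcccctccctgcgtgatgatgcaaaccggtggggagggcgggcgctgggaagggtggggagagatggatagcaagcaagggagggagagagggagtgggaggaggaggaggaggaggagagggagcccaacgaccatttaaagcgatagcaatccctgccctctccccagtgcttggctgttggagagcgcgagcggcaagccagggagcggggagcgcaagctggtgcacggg
Gabra5: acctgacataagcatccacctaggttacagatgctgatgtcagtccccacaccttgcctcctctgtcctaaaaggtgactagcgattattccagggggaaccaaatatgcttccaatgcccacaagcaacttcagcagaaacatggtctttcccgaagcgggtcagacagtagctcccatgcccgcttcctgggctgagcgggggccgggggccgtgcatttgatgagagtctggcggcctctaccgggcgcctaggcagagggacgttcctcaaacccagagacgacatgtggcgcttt
Gabrg3: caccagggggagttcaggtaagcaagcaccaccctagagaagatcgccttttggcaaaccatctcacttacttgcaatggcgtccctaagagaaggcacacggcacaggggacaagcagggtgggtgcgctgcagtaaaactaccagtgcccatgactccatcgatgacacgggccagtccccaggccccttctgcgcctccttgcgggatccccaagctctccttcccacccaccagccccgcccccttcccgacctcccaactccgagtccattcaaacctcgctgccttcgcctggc
The Grin2c window held 1 match, starting 248 bases before the start, and those of Grm7, Gabra5 and Gabrg3 held none on either strand. AGGTCA on either strand occurred in 16.3% of 32851 promoters and in 3 of the 39 promoters listed for 32 members (Grin2c, Grm8 and Gabrr3). The direct repeat with 4 spacer bases, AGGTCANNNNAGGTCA, occurred in 0.0152% of promoters and in 0 of the 39. These are letter matches in a short window and say nothing of binding.

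Gene counts per library ran from 18262279 to 42588442, with 27566 to 41671 genes detected and 22.4% to 46.7% of reads in genes. Rxrg, the gene targeted in the knockout, was against the labels: it ranged from 3.77 to 5.46 CPM in RXRgKO-labelled libraries and from 0.371 to 1.79 CPM in WT-labelled ones. Every label comparison below is therefore between libraries as labelled. Libraries also fell into sets within groups: WT-labelled replicate 1 stood apart from replicates 2 to 4 in both treatments, and RXRgKO-labelled libraries fell into a set lacking Xist (untreated replicates 1 and 3, T3 replicates 1 and 2) and a set with it (untreated 2 and 4, T3 3 and 4). Of the OPC markers, 7 of 7 were above 1 CPM in mean, and edgeR and DESeq2 called 0 of 7 in each of the 5 comparisons (0 to 3 at an unadjusted edgeR p under 0.05). Their summed level nevertheless split by set. It was 418 to 560 CPM per kilobase in RXRgKO-labelled libraries lacking Xist and 805 to 957 in those with it. In WT-labelled replicate 1 it was 992 and 1147, against 641 to 743 in replicates 2 to 4. Reads aligned to several places split by set too. They made up 52.1% to 54.5% in RXRgKO-labelled libraries lacking Xist and 45.2% to 48.8% in those with it. In WT-labelled replicate 1 they were 39.6% and 41.2%, against 52.3% to 55.0% in replicates 2 to 4. The part of this in values that differ by set was not tested.

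Summed over members and per kilobase of exon, receptor RNA differed little between groups, at 198 ± 30.7 CPM per kilobase in RXRgKO-labelled libraries with T3, 187 ± 22.9 in RXRgKO-labelled untreated, 186 ± 20.7 in WT-labelled with T3 and 193 ± 19.4 in WT-labelled untreated libraries (SD, n = 4 each). Its make-up did differ. GABA-A genes supplied 28.6% of it in RXRgKO-labelled libraries with T3 and 25.9% in untreated ones, against 15.0% in WT-labelled libraries with T3 and 15.3% in untreated ones. AMPA genes supplied 23.4%, 27.6%, 27.7% and 30.2% in the same order of groups. These shares are of group means, and the sums split by library set. With T3, RXRgKO-labelled replicates 1 and 2, lacking Xist, had totals of 170 and 173 and GABA-A sums of 60.7 and 62.3. Replicates 3 and 4, with Xist, had totals of 224 and 225 and GABA-A sums of 52.6 and 50.9. Untreated RXRgKO-labelled libraries split the same way. WT-labelled replicate 1 had the highest total of its group (217 with T3 and 222 untreated). Averaged over the 16 libraries, the members with the highest per-length levels were Gria2 (30.5 CPM per kilobase), Grik3 (20.8), Gabrg1 (15.6), Gabbr1 (15.0), Gria4 (13.2) and Grik5 (11.8).

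**Figure D1:**
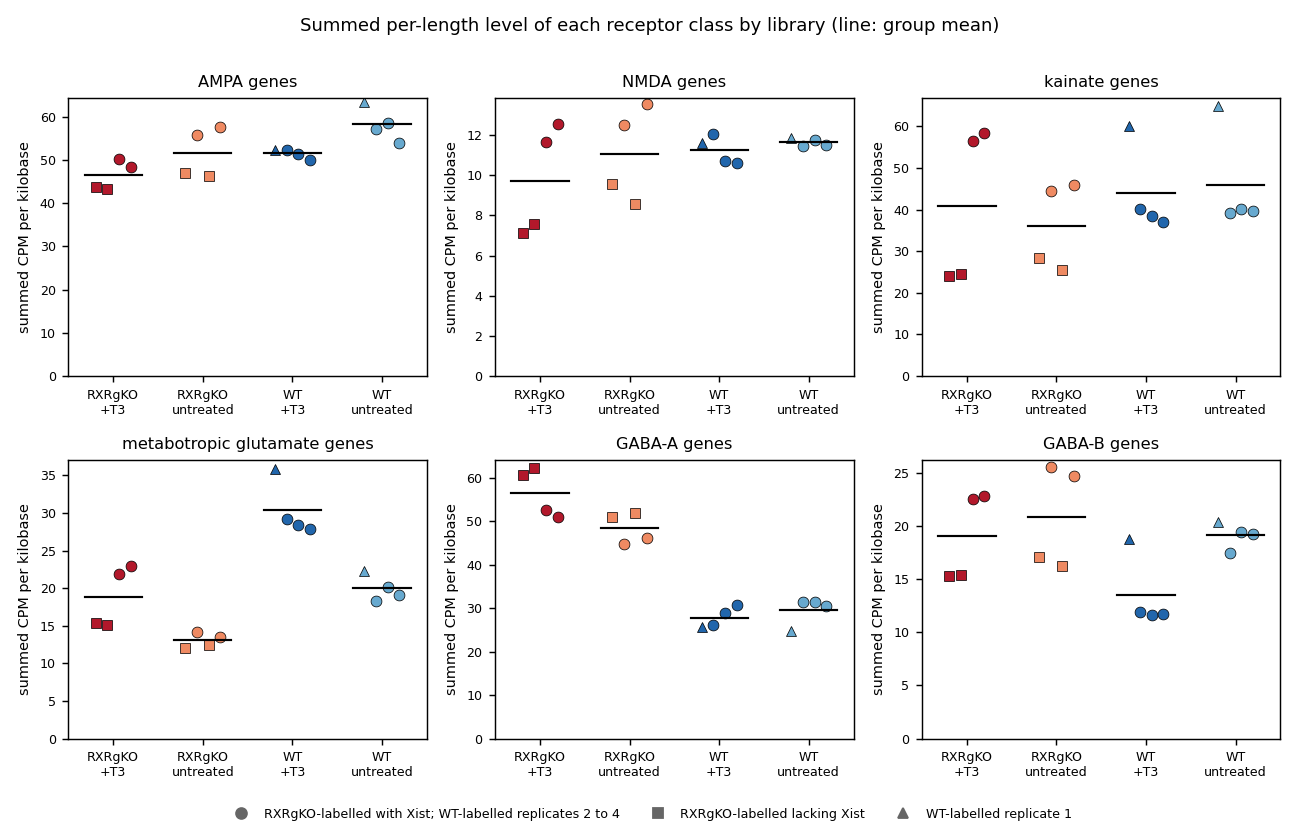
Summed CPM per kilobase of exon (vertical axis, linear) of 6 receptor classes in each of the 16 libraries, by group, with a line at the group mean; marker shapes show the library sets. GABA-A sums lay between 44.8 and 62.3 in the 8 RXRgKO-labelled libraries and between 24.7 and 31.5 in the 8 WT-labelled ones, without overlap.

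With T3 in WT-labelled libraries, 16 of 42 tested members passed edgeR's quasi-likelihood test at a Benjamini-Hochberg adjusted p under 0.05, 14 lower and 2 higher, where 8.44% of all 19764 tested genes passed (3.48% lower and 4.96% higher). Among those that fell were the NMDA genes Grin1, Grin2b, Grin2d and Grin3a, the kainate gene Grik1, the metabotropic genes Grm2, Grm3 and Grm4, and the GABA-A genes Gabra2, Gabra3, Gabrb1 and Gabrb2. Grin2c and Grm5 rose. The median log2 fold change of the 42 members was -0.50, beside -0.032 over all tested genes. In these bulk libraries fewer cells of a type and less RNA per cell cannot be told apart.

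Markers of other cells moved in the same comparison: 7 of 9 GABA interneuron markers and 3 of 5 excitatory neuron markers fell with T3, and 6 of 8 mature oligodendrocyte markers rose. Of 9 general neuron markers edgeR called 0, with 7 changes negative and 4 at an unadjusted p under 0.05. DESeq2 called 1 of them, Map2, lower. The part of these cells in the receptor result was not tested. Replicate numbers were taken as pairs here, though replicate 1 alone correlated best with its own number. With the number as a block 28 members passed, 23 lower and 5 higher, including the 16, where 5084 of 17319 tested genes passed. With the library set as a term 30 members passed, where 7599 of 19764 tested genes did. Among those that the block added were Gria2, Grik5, Grid1, Grm8, Gabra4, Gabra5, Gabrq and Gabbr1, lower, and Grm7 and Gabrg1, higher. DESeq2 added Gabbr1 and Gabrq, both lower. Leaving out WT-labelled untreated replicate 3 or 4 left 9 or 10 members. Gabra2, Gabra3, Gabrb1, Gabrb2, Grin2c, Grin2d, Grin3a, Grm4 and Grm5 passed under each of the 15 alternatives run for this comparison, and the other 7 lost their call under at least 1.

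With T3 in RXRgKO-labelled libraries, 3 of 42 members passed, where 2.81% of all tested genes did (2.01% higher and 0.794% lower). Grin2c and Grm7 rose and Grin3a fell. The members' median log2 fold change was -0.19, beside -0.00188 over all tested genes. None of the 3 calls held under every one of 17 alternatives, and the count depended on the library sets: 22 members passed with the set as a term, 7 without WT-labelled replicate 1 in both treatments, 1 without the libraries that have Xist, and 1 without RXRgKO-labelled untreated replicate 2 or 4. Over all tested genes, 6634 of 19764 passed with the set term and 1540 of 20573 without WT-labelled replicate 1. Without the libraries that have Xist 129 of 21620 did. On leaving out untreated replicate 2 or 4 it was 275 of 20645 or 253 of 20593. In edgeR Grin2c and Grin3a were called for T3 under both labels, and DESeq2 called Grm5 under both as well.

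Between the labels without T3, 10 of 42 members passed, 9 higher and 1 lower in RXRgKO-labelled libraries, where 11.3% of all tested genes passed (6.17% higher and 5.16% lower). The 9 were Grin1, Grm5, Gabbr2 and 6 GABA-A genes, among them Gabra5, Gabrb2, Gabrg1 and Gabrg3, and the 1 was Grm7. Under DESeq2 the split was 9 higher and 3 lower, with Gria2 among the lower. The median log2 fold change was 0.094 among members and -8.18e-04 among all tested genes. Of the 10, Gabrg3 and Grm7 were among those that passed under each of the 16 alternatives, and 7 did not.

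Between the labels with T3, 17 of 42 members passed, 13 higher and 4 lower in RXRgKO-labelled libraries, where 14.9% of all tested genes passed (8.1% higher and 6.8% lower). The 13 were Gria1, Grin1, Grin2b, Grin2d, Grm4, Gabbr2 and 7 GABA-A genes, among them Gabra5, Gabrb2, Gabrg1 and Gabrg3. Gria2, Grin2c, Grik2 and Grm7 were lower. The median log2 fold change was 0.49 among members and 0.025 among all tested genes. Gabra5, Gabrb2, Gabrg3, Gabbr2, Grin1, Grin2d and Grm7 were among those that passed under each of 16 alternatives. The 4 comparisons share libraries in pairs, so their counts are not independent of each other.

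**Figure D2:**
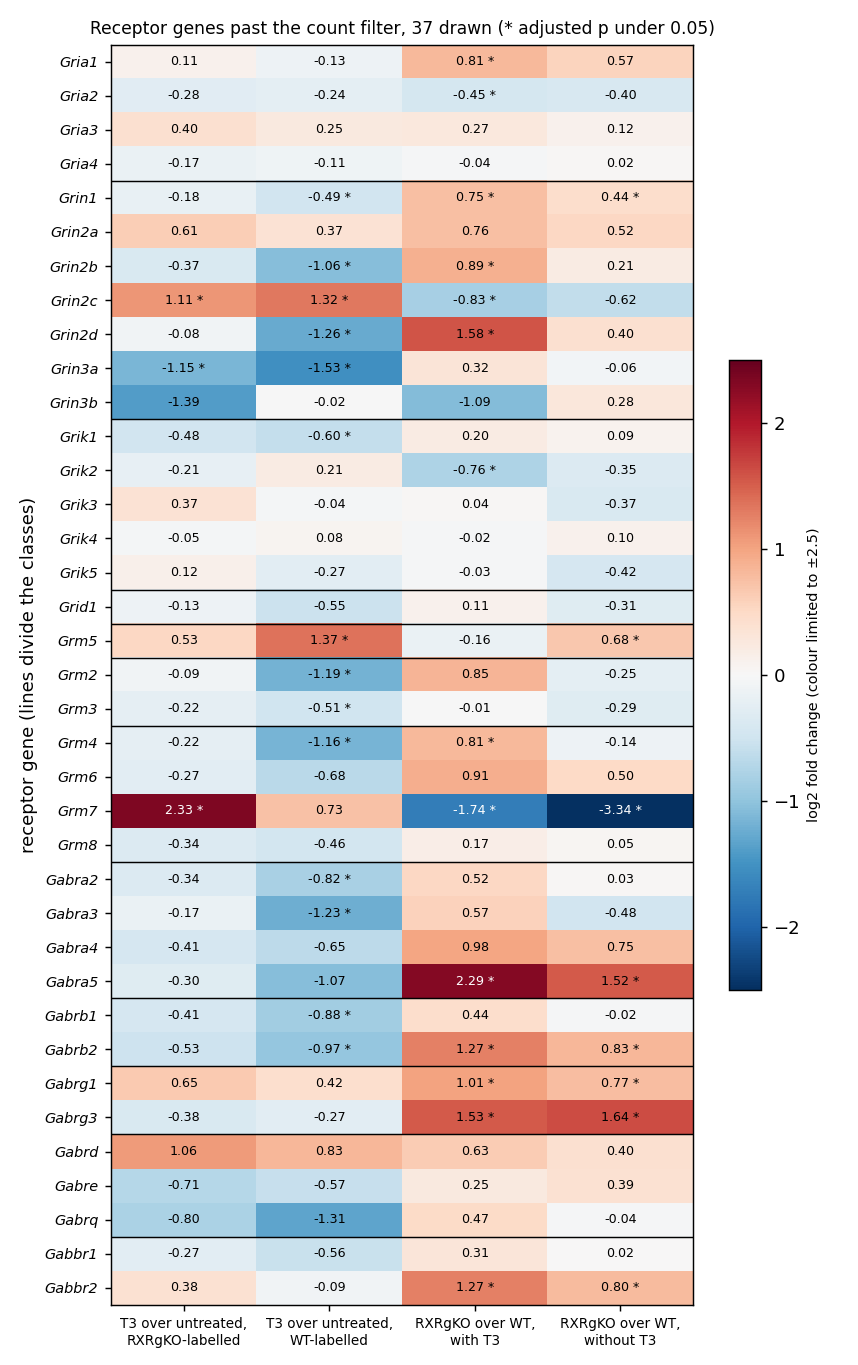
Fitted log2 fold changes of 37 of the 42 tested members (rows, grouped by class) in 4 comparisons (columns), coloured from lower (blue) to higher (red) in the group named first, with an asterisk at an adjusted p under 0.05. With T3, the RXRgKO over WT column is positive in 11 of 11 GABA-A rows drawn, and in the WT-labelled T3 column 9 of those 11 rows are negative.

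NMDA receptor genes showed the widest spread of T3 changes among the ionotropic glutamate classes. Grin2c, which encodes the GluN2C subunit of slowly closing NMDA channels with weak magnesium block, had 11.9, 13.9, 27.9 and 30.7 CPM in RXRgKO-labelled libraries with T3, against 12.4, 7.78, 9.58 and 9.37 CPM without it (replicates 1 to 4). In WT-labelled libraries it had 38.1, 40.9, 35.8 and 35.8 CPM with T3, against 16.1, 15.3, 13.6 and 15.1 CPM without it. The WT-labelled groups stood apart by more than the spread within either, whereas under the RXRgKO label only T3 replicates 3 and 4, the libraries with Xist, lay well above the untreated ones. The log2 fold change with T3 was 1.11 ± 0.24 under the RXRgKO label (SE; edgeR quasi-likelihood adjusted p = 0.0198) and 1.32 ± 0.24 under the WT label (edgeR adjusted p = 0.00245). Without the libraries that have Xist, the RXRgKO-labelled change no longer passed (edgeR adjusted p = 0.796), and within the sets its T3 to untreated ratio was 1.17 where Xist was lacking and 3.41 where it was present.

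Grin3a, which encodes GluN3A, a subunit that lowers calcium entry and is prominent in developing brain, moved the other way. It had 24.6, 24.6, 37.6 and 38.0 CPM in RXRgKO-labelled libraries with T3, against 50.4, 88.8, 43.8 and 94.5 CPM without it. WT-labelled libraries held 33.1, 23.1, 22.9 and 21.2 CPM with T3, against 83.5, 67.9, 71.1 and 66.7 CPM without it. Libraries with T3 lay below untreated ones under both labels, without overlap. The log2 fold change was -1.15 ± 0.24 under the RXRgKO label (edgeR adjusted p = 0.0141) and -1.53 ± 0.24 under the WT label (edgeR adjusted p = 7.41e-04). Per kilobase, Grin3a supplied the largest share of NMDA receptor RNA in untreated libraries, 51.2% under the RXRgKO label and 50.6% under the WT label. With T3 Grin2c did, with 43.1% under the RXRgKO label and 66.5% under the WT label.

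Grin1, which encodes the GluN1 subunit that every NMDA receptor needs, had 10.7, 9.47, 9.65 and 10.1 CPM in RXRgKO-labelled libraries with T3, against 9.62, 12.3, 10.3 and 13.1 CPM without it. The WT-labelled values were 6.23, 6.53, 5.42 and 5.65 CPM with T3, against 8.09, 7.82, 8.30 and 9.18 CPM without it. RXRgKO-labelled libraries were above WT-labelled ones in both treatments. The log2 difference between labels was 0.75 ± 0.13 with T3 (edgeR adjusted p = 5.71e-04) and 0.44 ± 0.12 without it (edgeR adjusted p = 0.0274), and T3 lowered the gene in WT-labelled libraries (-0.49 ± 0.13, edgeR adjusted p = 0.0231). The label call without T3 held under 7 of 16 alternatives and the T3 call under 10 of 15. An antisense gene, Grin1os, covers 13.5% of Grin1 exon bases, and the strand setting of the counting is not given in the sources used here.

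Grin2b and Grin2d, which encode GluN2B and GluN2D, the GluN2 subunits typical of the young brain, fell with T3 in WT-labelled libraries. Grin2b had 25.9, 28.6, 34.2 and 40.3 CPM in RXRgKO-labelled libraries with T3, against 12.48, 20.9, 17.5 and 18.8 CPM in WT-labelled libraries with T3. Untreated libraries held 33.1, 48.1, 32.7 and 53.3 CPM under the RXRgKO label, against 18.01, 40.8, 44.5 and 41.6 CPM under the WT label. With T3 the labels did not overlap, and among untreated WT-labelled libraries replicate 1 lay far below the rest. The log2 fold change was 0.89 ± 0.26 between labels with T3 (edgeR adjusted p = 0.0265) and -1.06 ± 0.26 with T3 in WT-labelled libraries (edgeR adjusted p = 0.0163). The label call held under 10 of 16 alternatives and was lost without the libraries that have Xist, and the T3 call held under 12 of 15.

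Grin2d was rare, at 1.43, 1.32, 1.35 and 1.03 CPM in RXRgKO-labelled libraries with T3, against 0.316, 0.432, 0.469 and 0.495 CPM in WT-labelled ones with T3. Untreated libraries ranged from 1.07 to 1.75 CPM under the RXRgKO label and from 0.803 to 1.26 CPM under the WT label. The 4 WT-labelled libraries with T3 were the lowest of the 16. Its log2 difference between labels with T3 was 1.58 ± 0.25 (edgeR adjusted p = 3.43e-04) and its T3 change in WT-labelled libraries -1.26 ± 0.26 (edgeR adjusted p = 0.00500), and antisense Gm45441 covers 9.66% of its exon bases. Grin2a and Grin3b passed in no comparison in the main edgeR fit or DESeq2, and 32.1% of Grin3b exon bases lie in Tmem259.

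**Figure D3:**
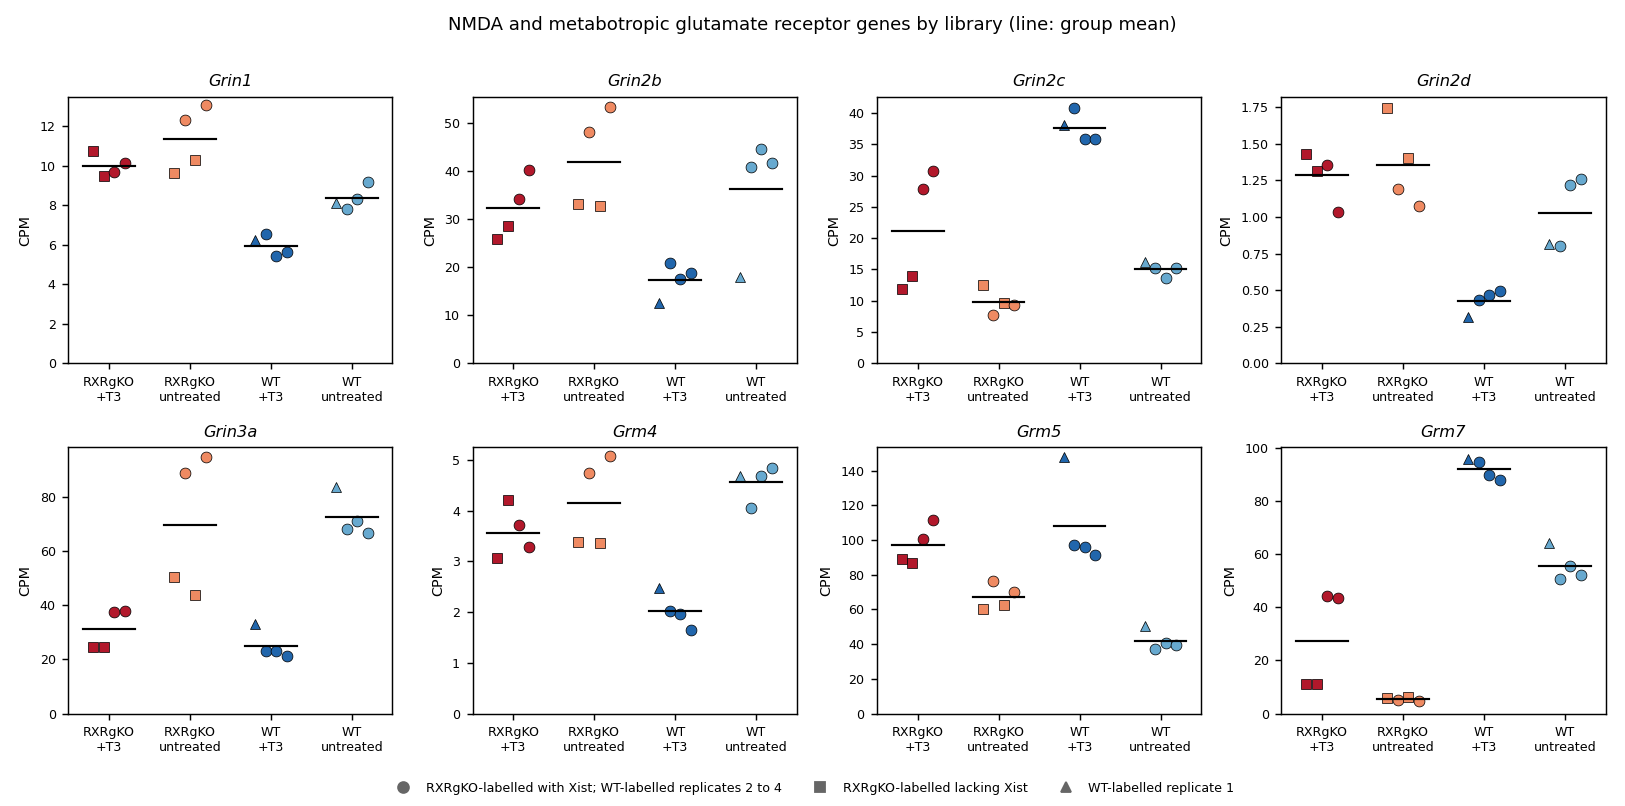
CPM (vertical axes, linear) of 8 NMDA and metabotropic glutamate receptor genes in each library, by group, with a line at the group mean and marker shapes for the library sets. Grin3a is lower with T3 under both labels, Grm7 lies between 4.84 and 44.0 CPM in RXRgKO-labelled libraries and between 50.6 and 95.6 CPM in WT-labelled ones, and Grin2c in RXRgKO-labelled libraries with T3 splits by Xist.

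AMPA receptor genes did not pass for T3 under either label in the main edgeR fit or DESeq2, with 0 of 4 called by each and 0 of 4 at an unadjusted edgeR p under 0.05. With the replicate block Gria2 fell in WT-labelled libraries (log2 -0.25 ± 0.078, edgeR adjusted p = 0.0355). Gria2, which encodes GluA2, the subunit that makes AMPA channels impermeable to calcium once its RNA is edited, was the member with the highest per-length level. It had 313, 325, 431 and 396 CPM in RXRgKO-labelled libraries with T3, against 437, 542, 525 and 491 CPM in WT-labelled ones with T3. Untreated libraries held 396, 494, 385 and 504 CPM under the RXRgKO label, against 561, 605, 615 and 572 CPM under the WT label. RXRgKO-labelled libraries lay below WT-labelled ones in both treatments; the difference passed with T3 (log2 -0.45 ± 0.14, edgeR adjusted p = 0.0413) and not without it (-0.40 ± 0.14, edgeR adjusted p = 0.0799). The call with T3 held under 6 of 16 alternatives.

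Gria1, which encodes GluA1, differed in the other direction, with 52.7, 50.6, 37.8 and 40.9 CPM in RXRgKO-labelled libraries with T3, against 29.8, 24.5, 23.3 and 26.1 CPM in WT-labelled ones with T3 (log2 0.81 ± 0.21, edgeR adjusted p = 0.0158). The groups did not overlap. The call held under 12 of 16 alternatives and was lost without the libraries lacking Xist (edgeR adjusted p = 0.178). Gria2's share of AMPA receptor RNA per kilobase was 50.8% in RXRgKO-labelled libraries with T3, against 62.3% in WT-labelled ones with T3, and 55.3% against 64.9% in untreated libraries. Gria3 and Gria4 passed in no comparison in the main edgeR fit or DESeq2.

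Kainate and delta receptor genes moved mostly with the library sets. Summed OPC markers split by set too, as given above, and so did summed astrocyte markers, at 1098 to 1687 CPM per kilobase in RXRgKO-labelled libraries lacking Xist and 520 to 952 in those with it, and at 1714 and 3368 in WT-labelled replicate 1 and 612 to 1233 in replicates 2 to 4. The part of either cell type in Grik3, Grid1, Grin2c, Gabra4 and other values that differ by set was not tested. Grik3, which encodes GluK3 and had the highest per-length level of the class, held 102, 97.4, 294 and 300.5 CPM in RXRgKO-labelled libraries with T3, against 301 CPM in WT-labelled replicate 1 and 148 to 169 CPM in replicates 2 to 4 with T3. Untreated libraries held 109, 199, 98.3 and 209 CPM under the RXRgKO label, against 328 CPM in WT-labelled replicate 1 and 153 to 159 CPM in replicates 2 to 4. Within the RXRgKO label the libraries lacking Xist were the low ones in both treatments, and no comparison passed in the main edgeR fit. Grid1, which encodes the orphan receptor GluD1, split the same way (16.6 to 39.6 CPM in RXRgKO-labelled libraries, 19.4 to 57.2 CPM in WT-labelled ones). It passed in none without the replicate block, and fell with T3 under the WT label with it (log2 -0.57 ± 0.077, edgeR adjusted p = 4.12e-04).

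Grik2, which encodes GluK2, had 46.9, 50.6, 78.2 and 80.7 CPM in RXRgKO-labelled libraries with T3, against 78.2, 119, 117 and 122 CPM in WT-labelled ones with T3 (log2 -0.76 ± 0.20, edgeR adjusted p = 0.0163). WT-labelled replicate 1 overlapped the RXRgKO-labelled values. The call held under 10 of 16 alternatives and was lost without the libraries lacking Xist. Grik1 (GluK1) fell with T3 in WT-labelled libraries, by 0.60 on the log2 scale (edgeR adjusted p = 0.0469), a call that held under 4 of 15 alternatives.

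Among metabotropic glutamate receptor genes, Grm7 had the greatest label difference. Grm7, which encodes mGlu7, a low-affinity inhibitory receptor best known from presynaptic terminals, had 11.2, 11.2, 44.0 and 43.4 CPM in RXRgKO-labelled libraries with T3, against 95.6, 94.6, 89.7 and 87.9 CPM in WT-labelled ones with T3. Untreated libraries held 5.99, 5.08, 6.05 and 4.84 CPM under the RXRgKO label, against 64.0, 50.6, 55.6 and 52.2 CPM under the WT label. The labels did not overlap in either treatment, and under the RXRgKO label the T3 libraries with Xist stood well above those lacking it.

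The Grm7 log2 difference between labels was -1.74 ± 0.35 with T3 (edgeR adjusted p = 0.00264) and -3.34 ± 0.38 without it (edgeR adjusted p = 2.10e-05). T3 changed it by 2.33 ± 0.37 in RXRgKO-labelled libraries (edgeR adjusted p = 0.00158). In WT-labelled ones the change was 0.73 ± 0.34, which did not pass in the main fit (edgeR adjusted p = 0.231) and passed with the replicate block (0.72 ± 0.075, edgeR adjusted p = 7.53e-05). WT-labelled libraries with T3 lay above untreated WT-labelled ones for Grm7, without overlap. The T3 to untreated ratio was 1.86 in the RXRgKO-labelled set lacking Xist and 8.81 in the set with it. The 8 mature oligodendrocyte markers ran alongside, with 8 lower in RXRgKO-labelled libraries without T3 and 7 with T3 (summed levels 559 to 871 CPM per kilobase in RXRgKO-labelled libraries with T3 and 223 to 335 untreated, against 3217 to 4991 and 2114 to 2720 in WT-labelled ones). No marker of the list was at 0 in any library, and the list's part in the Grm7 difference was not tested.

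Grm5, which encodes mGlu5, a receptor that releases calcium from stores, rose with T3 in WT-labelled libraries. It had 88.8, 86.6, 101 and 111 CPM in RXRgKO-labelled libraries with T3, against 60.4, 76.1, 62.6 and 69.8 CPM without it. WT-labelled libraries held 148, 97.0, 96.1 and 91.3 CPM with T3, against 50.7, 36.9, 40.6 and 39.4 CPM without it. Libraries with T3 lay above untreated ones under both labels, and untreated RXRgKO-labelled libraries lay above untreated WT-labelled ones. The T3 change was 1.37 ± 0.16 under the WT label (log2; edgeR adjusted p = 5.96e-05) and 0.53 ± 0.16 under the RXRgKO label, which did not pass (edgeR adjusted p = 0.0968); the label difference without T3 was 0.68 ± 0.16 (edgeR adjusted p = 0.00948) and held under 12 of 16 alternatives.

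Grm2, Grm3 and Grm4 encode receptors that inhibit adenylyl cyclase, and all 3 fell with T3 in WT-labelled libraries. Grm4 (mGlu4) had 3.06, 4.21, 3.72 and 3.27 CPM in RXRgKO-labelled libraries with T3, against 2.47, 2.02, 1.96 and 1.65 CPM in WT-labelled ones with T3. Untreated libraries ranged from 3.36 to 5.07 CPM under the RXRgKO label and from 4.06 to 4.83 CPM under the WT label. WT-labelled libraries with T3 were the lowest of the 16. Grm4 changed by -1.16 ± 0.18 with T3 under the WT label (log2; edgeR adjusted p = 5.46e-04) and differed by 0.81 ± 0.18 between labels with T3 (edgeR adjusted p = 0.00518). Grm2 and Grm3 changed by -1.19 ± 0.32 and -0.51 ± 0.15 with T3 under the WT label (edgeR adjusted p = 0.0310 and 0.0428), calls that held under 7 and 6 of 15 alternatives. Grm6 and Grm8 passed in no comparison in the main edgeR fit or DESeq2.

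GABA-A receptor genes formed the class with the most members higher in RXRgKO-labelled libraries. They were 7 of 14 tested with T3 and 6 of 14 without it, with 0 lower in either. Over all tested genes 8.1% were higher with T3 and 6.17% without it. The class is also larger than NMDA, where of 7 tested 3 were higher and 1 lower with T3 and 1 was higher without it. The median log2 difference of the 14 was 1.00 with T3 and 0.73 without it. With T3 in WT-labelled libraries 5 of 14 fell and 0 rose, with a median of -0.76, where 3.48% of all tested genes fell and 4.96% rose. With the replicate block Gabra4, Gabra5 and Gabrq were also among those lower, and Gabrg1 was higher. With T3 in RXRgKO-labelled libraries 0 of 14 passed in edgeR (5 at an unadjusted p under 0.05), where 2.81% of all tested genes did. DESeq2 passed 1, Gabrg1. The edgeR median was -0.36. The usual receptor combines alpha, beta and gamma subunits around a chloride channel.

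Alpha subunits form part of the GABA and benzodiazepine sites. Gabra5 (alpha 5, mostly outside synapses in brain) had 8.47, 9.47, 3.10 and 3.82 CPM in RXRgKO-labelled libraries with T3, against 1.55, 0.720, 0.896 and 1.77 CPM in WT-labelled ones with T3. Untreated libraries held 10.2, 4.35, 11.2 and 4.60 CPM under the RXRgKO label, against 2.03, 3.17, 2.53 and 2.79 CPM under the WT label. The labels did not overlap in either treatment, and within the RXRgKO label the libraries lacking Xist were the high ones. The log2 difference was 2.29 ± 0.42 with T3 (edgeR adjusted p = 0.00126) and 1.52 ± 0.40 without it (edgeR adjusted p = 0.0172), and without the libraries lacking Xist the second no longer passed (edgeR adjusted p = 0.120).

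Gabra4 (alpha 4), the alpha gene with the highest per-length level, showed the same split by set: 28.9, 29.4, 10.6 and 11.9 CPM in RXRgKO-labelled libraries with T3, against 9.08 to 11.7 CPM in WT-labelled ones with T3. It passed in no comparison in the main edgeR fit or DESeq2, and fell with T3 under the WT label with the replicate block (log2 -0.63 ± 0.12, edgeR adjusted p = 0.00355). Gabra2 and Gabra3, called for T3 only, changed by -0.82 ± 0.18 and -1.23 ± 0.27 in WT-labelled libraries (edgeR adjusted p = 0.00841 and 0.00910).

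Beta subunits line the GABA site with alpha. Gabrb2 (beta 2) ranged from 8.94 to 14.1 CPM in RXRgKO-labelled libraries with T3, against 3.92 to 5.36 CPM in WT-labelled ones with T3 (log2 1.27 ± 0.19, edgeR adjusted p = 2.37e-04). Untreated libraries ranged from 13.7 to 19.6 CPM under the RXRgKO label, against 6.87 to 11.0 CPM under the WT label (log2 0.83 ± 0.19, edgeR adjusted p = 0.00683). Neither pair overlapped. T3 lowered Gabrb2 and Gabrb1 (beta 1) in WT-labelled libraries, with log2 changes of -0.97 ± 0.19 and -0.88 ± 0.19 (edgeR adjusted p = 0.00432 and 0.00740).

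Gamma subunits place the receptor at synapses and give benzodiazepine sensitivity. Gabrg1 (gamma 1), an abundant subunit in glia, supplied 82.2% to 91.0% of gamma RNA per kilobase over the 4 groups. It had 229, 237, 164 and 152 CPM in RXRgKO-labelled libraries with T3, against 67.1, 92.2, 111 and 118 CPM in WT-labelled ones with T3. Untreated libraries held 146, 109, 130 and 113 CPM under the RXRgKO label, against 59.6, 82.8, 75.2 and 73.7 CPM under the WT label. The labels did not overlap in either treatment. The log2 difference was 1.01 ± 0.19 with T3 (edgeR adjusted p = 0.00154) and 0.77 ± 0.19 without it (edgeR adjusted p = 0.0121), and both calls were lost without the libraries lacking Xist.

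Gabrg3 (gamma 3) had 5.96, 5.47, 4.92 and 5.12 CPM in RXRgKO-labelled libraries with T3, against 3.26, 1.39, 1.45 and 1.195 CPM in WT-labelled ones with T3. Untreated libraries held 4.52, 8.01, 7.71 and 7.73 CPM under the RXRgKO label, against 1.02, 3.17, 2.65 and 2.13 CPM under the WT label. Again no RXRgKO-labelled library overlapped a WT-labelled one. The log2 difference was 1.53 ± 0.33 with T3 (edgeR adjusted p = 0.00381) and 1.64 ± 0.32 without it (edgeR adjusted p = 0.00254).

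Gabra5 and Gabrg3, both higher in RXRgKO-labelled libraries in both treatments, lie side by side on chromosome 7 (GRCm38). Gabrg3 spans 56716465 to 57387188 and Gabra5 57407672 to 57510059, both on the minus strand. The promoters of Gabra5 and Gabrg3 printed above had 56.7% and 61.0% G and C bases and 13 CpG dinucleotides each. By contrast, of the group on chromosome 5 (Gabrg1, Gabra2, Gabra4, Gabrb1) Gabrg1 alone was called between labels. On chromosome 11 Gabrb2 was called in both treatments, and Gabra6 was not tested. Of the delta, epsilon and theta genes, Gabrd and Gabre passed in no comparison in the main edgeR fit or DESeq2. Gabrq fell with T3 under the WT label in DESeq2 and with the replicate block. Each of the 3 averaged under 1 CPM over the 16 libraries.

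**Figure D4:**
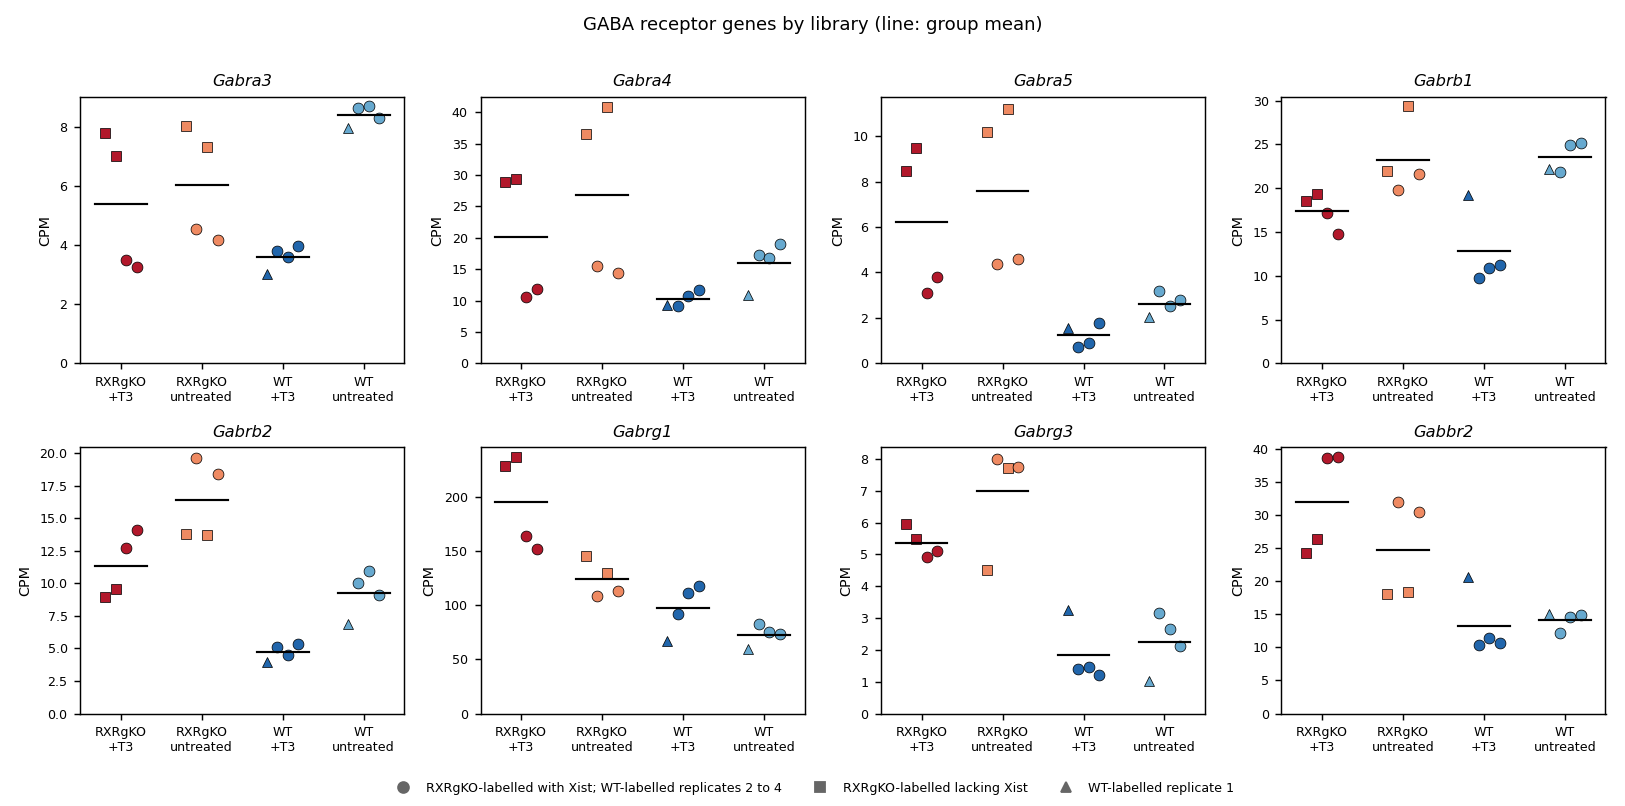
CPM (vertical axes, linear) of 8 GABA receptor genes in each library, by group, with a line at the group mean and marker shapes for the library sets. In the panels of Gabra5, Gabrb2, Gabrg1, Gabrg3 and Gabbr2 the RXRgKO-labelled libraries lie above the WT-labelled ones given the same treatment.

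The GABA-B receptor needs both of its subunits, GABBR1, which binds GABA, and GABBR2, which couples to the G protein. Gabbr2 had 24.3, 26.4, 38.7 and 38.8 CPM in RXRgKO-labelled libraries with T3, against 20.6, 10.4, 11.4 and 10.7 CPM in WT-labelled ones with T3. Untreated libraries held 18.1, 32.01, 18.4 and 30.4 CPM under the RXRgKO label, against 15.1, 12.1, 14.7 and 15.0 CPM under the WT label. The labels did not overlap in either treatment. The log2 difference was 1.27 ± 0.25 with T3 (edgeR adjusted p = 0.00205) and 0.80 ± 0.25 without it (edgeR adjusted p = 0.0470), and the second held under 7 of 16 alternatives. Gabbr1 passed in no comparison in the main edgeR fit. With T3 under the WT label it was lower in DESeq2 and with the replicate block (log2 -0.60 ± 0.099, edgeR adjusted p = 0.00146 with the block).

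The test of the difference in response (T3 change in RXRgKO-labelled less T3 change in WT-labelled libraries) passed for 0 of 42 members with edgeR, where 0.0658% of all tested genes passed (0.0101% positive and 0.0557% negative). At an unadjusted p under 0.05 edgeR had 6 of 42, and DESeq2 passed 1, Grm5 (log2 difference -0.86, DESeq2 adjusted p = 0.0230). A term for the library set gave 12 members, 10 positive and 2 negative, where 1321 of 19764 tested genes passed (737 positive and 584 negative). Among the 12 were Grm5 (log2 difference -0.82, edgeR adjusted p = 2.22e-06), Gabra3 (1.03, edgeR adjusted p = 1.33e-04), Grin2b, Grin2d, Grm4 and Gabrb2, each called for T3 under the WT label alone in edgeR without that term. The set term was chosen after seeing the data. Without that term, edgeR called Grm7 on omission of the RXRgKO-labelled libraries lacking Xist (log2 difference 2.37, edgeR adjusted p = 3.62e-05). That omission was also chosen after seeing the data.

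Genes that work with these receptors were taken from 6 lists. Their counts stand beside shares over all tested genes of 8.44% for T3 under the WT label, 2.81% for T3 under the RXRgKO label, 14.9% between labels with T3 and 11.3% between labels without it. Of 12 AMPA receptor auxiliary genes, Cacng5, which encodes the channel partner TARP gamma 5, rose with T3 under both labels: it averaged 12.3 ± 3.09 CPM in RXRgKO-labelled libraries with T3 and 2.06 ± 0.673 CPM untreated, against 19.3 ± 1.22 and 1.43 ± 0.546 CPM in WT-labelled ones (SD, n = 4 each). The log2 changes were 2.57 ± 0.26 (edgeR adjusted p = 1.74e-05) and 3.75 ± 0.27 (edgeR adjusted p = 4.47e-07), and the groups did not overlap. Cnih3, a cornichon that slows AMPA channel closing, was lower in RXRgKO-labelled libraries with T3 (log2 -1.68 ± 0.21, edgeR adjusted p = 4.32e-05) and without it (-1.22 ± 0.21, edgeR adjusted p = 8.49e-04). In all, 1 of the 12 rose and 3 fell with T3 under the WT label, 1 rose under the RXRgKO label, and between labels 3 were higher and 1 lower with T3 and 1 was lower without it; the last share, 8.33%, is below that over all genes. Of the 2 kainate receptor auxiliary genes, Neto2 was higher in RXRgKO-labelled libraries with T3 (0.44 ± 0.14, edgeR adjusted p = 0.0422).

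Of 13 glutamate receptor scaffold genes, edgeR called 1 (Dlg2, which encodes PSD-93) lower with T3 under the WT label. That share, 7.69%, is near the edgeR share over all genes, and 5 had an unadjusted edgeR p under 0.05. DESeq2 called 4 (Dlg1, Dlg2, Homer3 and Shank1), 2 higher and 2 lower, where it called 2420 of 19764 tested genes. With T3 under the RXRgKO label 0 were called by edgeR or DESeq2 (1 at an unadjusted edgeR p under 0.05). Between labels 4 were higher and 2 lower with T3, and 2 were lower without it. Dlg1, which encodes the scaffold SAP97, averaged 87.0 ± 8.68 CPM in RXRgKO-labelled libraries with T3 against 167 ± 11.1 CPM in WT-labelled ones with T3 (log2 -0.94 ± 0.11, edgeR adjusted p = 1.71e-05). Of 8 GABA receptor scaffold genes, such as Gphn (gephyrin), edgeR called 0 in each of the 5 comparisons. Between labels with T3, 1 had an unadjusted edgeR p under 0.05 and DESeq2 called 1, Lhfpl4, lower. Of 10 genes of glutamate supply and uptake, 3 fell with T3 under the WT label (Slc17a6, Slc17a8 and Slc1a6), 0 were called with T3 under the RXRgKO label (edgeR and DESeq2, and 0 at an unadjusted edgeR p under 0.05), 1 was higher in RXRgKO-labelled libraries with T3 (Slc17a6) and 1 lower without it (Glul, glutamine synthetase). The edgeR label shares of that list, 10.0% in each treatment, are below those over all genes. DESeq2 called 2 higher and 1 lower between labels with T3, and 1 lower without it. Over all genes it called 3686 of 19764 with T3 and 2800 of 19764 without it.

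Of 10 genes of GABA synthesis, uptake and chloride transport, 4 fell and 1 rose with T3 under the WT label, and 1 rose under the RXRgKO label. Between labels 4 were higher and 1 lower with T3, and 3 were higher and 1 lower without it. Slc12a2, which encodes the chloride importer NKCC1, averaged 219 ± 69.1 CPM in RXRgKO-labelled libraries with T3 and 109 ± 21.3 CPM untreated, against 571 ± 11.6 and 241 ± 35.5 CPM in WT-labelled ones (SD, n = 4 each). It rose with T3 under both labels (log2 1.01 ± 0.20 and 1.24 ± 0.20, edgeR adjusted p = 0.00963 under RXRgKO and 8.32e-04 under WT) and was lower in RXRgKO-labelled libraries (-1.38 ± 0.20 with T3 and -1.15 ± 0.20 without it, edgeR adjusted p = 1.65e-04 and 9.34e-04). Slc12a5, the neuronal chloride exporter KCC2, was higher in RXRgKO-labelled libraries with T3 (1.22 ± 0.19, edgeR adjusted p = 3.07e-04).

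Gad1, Gad2 and Slc32a1, which make GABA and load it into vesicles, fell with T3 under the WT label and were higher in RXRgKO-labelled libraries in both treatments. They are also 3 of the 9 GABA interneuron markers, of which 9 were higher in RXRgKO-labelled libraries with T3 and 5 without it, and 1 fell with T3 under that label. Summed interneuron markers ranged from 44.3 to 50.4 CPM per kilobase in RXRgKO-labelled libraries with T3 and from 59.3 to 68.5 untreated, against 9.26 to 15.6 and 13.5 to 43.1 in WT-labelled ones. Among general neuron markers, 3 of 9 were higher and 1 lower in RXRgKO-labelled libraries with T3, and 1 was lower without it. DESeq2 called 4 higher and 1 lower with T3, and 2 higher and 1 lower without it. At an unadjusted edgeR p under 0.05 there were 9 of 9 with T3 and 3 of 9 without it. In each treatment 8 of the 9 differences were positive. No marker of either list was at 0 in any library. GABA-A sums and interneuron sums both separated the labels without overlap in each treatment, and the part of interneuron-type cells in the GABA-A receptor result was not tested.

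**Figure D5:**
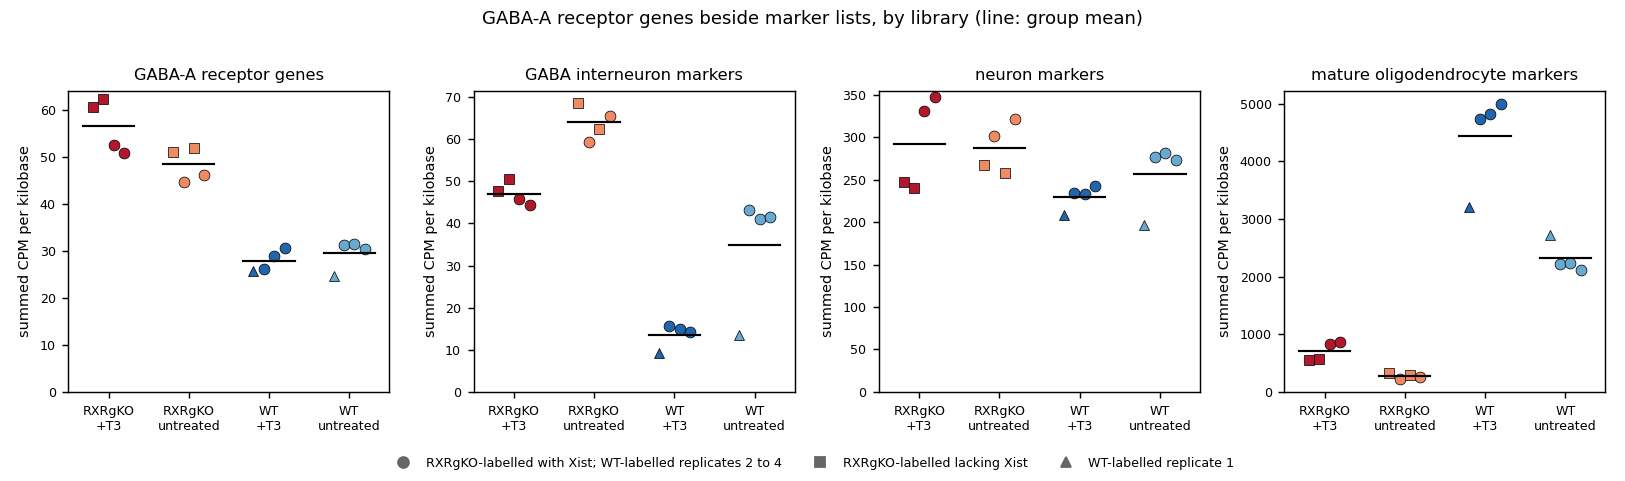
Summed CPM per kilobase of exon (vertical axes, linear) of the GABA-A receptor genes and of 3 marker lists in each library, by group, with a line at the group mean. GABA interneuron sums are higher in RXRgKO-labelled than in WT-labelled libraries given the same treatment, and mature oligodendrocyte sums are lower.

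Other marker lists gave the following values. Of 7 astrocyte markers edgeR called 0 in each comparison (0 or 1 at an unadjusted p under 0.05), and DESeq2 called 1, Aldh1l1, higher with T3 under the WT label. Of 5 microglial markers, 4 were higher in RXRgKO-labelled libraries in both treatments, at summed levels of 0.990 to 3.32 CPM per kilobase in RXRgKO-labelled libraries and 0.408 to 0.735 in WT-labelled ones, and Aif1 was at 0 in 4 libraries. Excitatory neuron markers summed to 8.73 to 15.95 CPM per kilobase in RXRgKO-labelled libraries with T3, against 5.55 to 8.57 in WT-labelled ones with T3, with 2 of 5 higher. Ependymal Foxj1 and Ccdc153 were higher in RXRgKO-labelled libraries in both treatments. Of the 4 endothelial and mural markers tested, edgeR called 1, Cdh5, higher in both treatments. Without T3, 2 of the 4 differences were negative, and DESeq2 called Rgs5 lower. The summed level of that list went against Cdh5 without T3. It was 6.73 to 7.45 CPM per kilobase in RXRgKO-labelled untreated libraries and 8.57 to 10.9 in WT-labelled untreated ones. With T3 the ranges overlapped. The part of these cells in the receptor values was not tested.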

How the data were processed

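The authors deposited raw counts per Ensembl gene, 55335 genes and 5 summary lines per library; the lines were left out. Reads were handled with HTSeq (0.6.1p1), STAR (2.5.3a) and bcl2fastq (2.17.1.14) on build mm10, per the submitters' processing notes; per the labels' protocols libraries were poly-A selected and strand-specific. Neither the annotation release nor the strand setting of HTSeq is given in the sources used here. Symbols, positions and exon lengths came from GENCODE M21 (GRCm38), which held 55154 of the identifiers.

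All 16 libraries entered 1 edgeR 4.0.16 quasi-likelihood fit, the main fit (R 4.3.3, TMM, filterByExpr, robust dispersions, 4 group means), which tested 19764 genes. Calls are Benjamini-Hochberg adjusted p under 0.05 over all of them. The standard error is the log2 fold change, without sign, over the square root of F. CPM are TMM-normalised, and values per kilobase divide CPM by exon length. Counting error is within the model, and reads carry no molecular identifiers.

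Members, lists, the rule for named genes (called members whose higher group averaged 1 CPM or more, the top member per class, up to 3 called genes per related list and comparison) and tests were chosen with earlier results of these data known. The text names some of the related genes that this rule gives, and some members that it gives are not reported here. Replicate numbers were taken as pairs for T3 in WT-labelled libraries, where same-number residual correlations were 0.648, 0.247, 0.211 and 0.164, though replicate 1 alone correlated best with its own number. Alternatives were DESeq2 1.42.0, its size factors in edgeR, no low-count filter, only the groups compared, a replicate block, and omitted libraries. A term for the library set, and omission of either RXRgKO-labelled set, were chosen after seeing the data. The fit was also run on simulated counts with the same spread for every gene and no library sets. That run does not cover the sets seen in these libraries.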

Additional observations from a re-analysis of the deposited data

Results flagged for a closer look

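Values of 28 members in each group of 4 libraries (112 groups) were screened with Dixon's test for 1 library far from the other 3; 17 were past its critical value, and chance flags about 1 in 20 groups. Of the 17, 9 were in WT-labelled replicate 1 with T3 and 5 in WT-labelled replicate 1 untreated, the replicate that stands apart over all genes in both treatments.

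With T3, WT-labelled replicate 1 was the highest of its group for Grin3a (33.1 CPM, the others 21.2 to 23.1), Grik3 (301, the others 148 to 169), Grid1 (41.3, the others 19.4 to 20.9), Grm5 (148, the others 91.3 to 97.0), Gabrb1 (19.2, the others 9.75 to 11.2), Gabrg3 (3.26, the others 1.195 to 1.45), Gabbr1 (122, the others 77.1 to 80.3) and Gabbr2 (20.6, the others 10.4 to 11.4). It was the lowest for Grik2 (78.2 CPM, the others 117 to 122). Untreated, WT-labelled replicate 1 was the lowest for Gria1 (14.7 CPM, the others 31.1 to 34.5), Grin2b (18.01, the others 40.8 to 44.5) and Grik2 (70.2, the others 101 to 106), and the highest for Grik3 (328, the others 153 to 159) and Grid1 (57.2, the others 30.3 to 31.6).

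The other 3 were Grik1 in RXRgKO-labelled untreated replicate 4 (5.16 CPM, the others 3.84 to 4.00), Gabrg3 in RXRgKO-labelled untreated replicate 1 (4.52 CPM, the others 7.71 to 8.01) and Gabbr2 in WT-labelled untreated replicate 2 (12.1 CPM, the others 14.7 to 15.1).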

How the results depend on the processing

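No named member changed direction in any comparison where it was called, under any alternative run. For T3 in WT-labelled libraries 16 members passed; 28 passed with the replicate block, 30 with a term for the library set, and 9 to 17 with each library left out in turn. For T3 in RXRgKO-labelled libraries 3 passed; 5 passed with DESeq2, 22 with the set term, 1 with only the groups compared, 0 with the replicate block (and 11 at an unadjusted p under 0.05 without it), 7 without WT-labelled replicate 1 in both treatments, 1 without the RXRgKO-labelled libraries that have Xist, and 1 to 3 with each library left out. Between labels the counts stayed within 1.5 times the 10 and 17 given, from 7 to 9 without T3 and from 12 to 18 with T3 on leaving out a library. For the T3 response difference 0 passed with edgeR; DESeq2 passed 1, the set term 12, omission of the libraries lacking Xist 1 (Grm7), and each library left out in turn 0. Outside WT-labelled T3 the replicate number was not taken to pair libraries. With the block 8 members passed between labels without T3, 12 with T3 and 0 for the response difference. Over all genes the block gave 1672 of 18460, 1381 of 17315 and 19 of 19764 in the same order. Over all genes, the count for T3 in WT-labelled libraries was 1668 of 19764, 5084 of 17319 with the block and 7599 of 19764 with the set term. Under the RXRgKO label it was 555 of 19764, 142 of 18876 and 6634 of 19764. Of 24 summed class levels 5 moved by more than 1 SD without the length correction. The cause of these changes was not tested. Depth limits the rare genes: 5 members were too low to test.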
